A study of Arabidopsis thaliana with 12 samples.

Results

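The tau and phi class glutathione transferases of Arabidopsis thaliana were followed here in seedling roots, across wild type and a SUMO ligase mutant with and without auxin. The family was taken by gene identifier, as GSTU1 to GSTU28 of the tau class and GSTF2 to GSTF14 of the phi class, 41 genes in all. Of these, 39 of the 23853 genes in the table were family members, 27 of the tau and 12 of the phi class, and GSTU2 and GSTF11 were not analysed here. At least 1 FPKM in at least 3 libraries was found for 34 of them, 24 tau and 10 phi, and these entered the tests together with all 18743 genes that passed that filter.

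Total RNA of roots was sequenced, and levels are given as FPKM, fragment counts scaled by exon length and library depth. The 4 groups had 3 libraries each: siz1-2 roots given 0.5 µM indole-3-acetic acid (IAA, the main natural auxin) for 3 h, siz1-2 roots on MS, Col-0 roots given 0.5 µM IAA for 3 h, and Col-0 roots on MS. All seedlings were grown on diluted Murashige and Skoog (MS) medium, for 7 days at 22 °C by the labels, while the study's text gives a slightly older age. The labels' protocol field lists IAA for every sample, so the groups were taken from each sample's own treatment label. Col-0 is the wild-type accession, and siz1-2 is 1 mutant line in SIZ1, the E3 ligase that attaches the small protein SUMO to its targets. The labels name the mutant siz1 and the study gives the allele. SIZ1 itself had 12.8 to 16.6 FPKM in the 6 siz1-2 libraries and 21.5 to 28.0 FPKM in the 6 Col-0 libraries, so its transcript was lower in the mutant and still present. The comparison asked whether SIZ1 takes part in auxin signalling, and here it is read on the glutathione transferases.

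Glutathione transferases (GSTs) join the tripeptide glutathione to reactive or foreign molecules, which are then moved into the vacuole. The tau and phi classes are the large plant classes, known for herbicide detoxification and for induction by auxin, salicylic acid, oxidative stress and wounding. Some members also bind or carry small plant metabolites rather than conjugating them, as GSTF12 does for anthocyanins.

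The 12 libraries held 19550600 to 22522166 fragments over the genes listed. The labels number the replicates of each group from 1 to 3 and do not say whether they came from separate plates, so the p-values measure only the spread between these libraries. All 10 root marker genes were above 0 in every library. The summed level of 20 green tissue markers was 1126 FPKM in siz1-2 IAA replicate 2 and 1435 FPKM in Col-0 IAA replicate 1, against 169 to 422 FPKM in the other 10 libraries, and 4 of the 20 passed the test as higher with IAA in Col-0. In bulk roots, fewer cells of a type and less RNA per cell cannot be told apart. Of the 10 root markers, 2 were higher and 2 lower with IAA in siz1-2, and 3 were lower with IAA in Col-0. Over all genes tested, the shares called higher and lower with IAA were 9.81% and 8.06% in siz1-2 and 9.09% and 8.21% in Col-0. The part of these markers in the results was not tested. With both libraries of high green marker sums left out, the number of members called was 14 with IAA in siz1-2, 14 with IAA in Col-0, 7 in siz1-2 with IAA and 10 in siz1-2 on MS. Over all genes tested, the share called in the same fit was 24.9%, 19.5%, 7.53% and 10.7% in that order, against 17.9%, 17.3%, 9.12% and 5.3% with all libraries.

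The members lie close together in the genome. By the TAIR10.1 annotation, 23 of the 41 genes are on chromosome 1, and 23 have another member as their direct neighbour, in 8 runs such as GSTF7, GSTF6, GSTF5 and GSTF4, or GSTU23 to GSTU19. Coding sequences were mostly unlike, with a median identity of 50.3% over the 820 pairs. Only 3 pairs reached 85%: GSTF2 and GSTF3 (94.5%), GSTF6 and GSTF7 (94.3%), and GSTU1 and GSTU2 (85.5%). No source used here says how fragments that fit several genes were assigned, so the split of counts within these pairs is uncertain. The beginning of the GSTF6 and GSTF7 coding sequences, bases 1 to 120 from the start codon, is shown because these neighbours gave the widest spread between replicates among members averaging at least 5 FPKM, and their 2 differences are in capitals.
GSTF6: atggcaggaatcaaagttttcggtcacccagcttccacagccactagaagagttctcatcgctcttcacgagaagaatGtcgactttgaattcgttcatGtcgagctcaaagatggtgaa
GSTF7: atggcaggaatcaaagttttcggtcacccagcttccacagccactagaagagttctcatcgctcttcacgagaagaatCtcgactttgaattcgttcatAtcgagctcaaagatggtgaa
The longest identical run between them was 116 bases.

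Strand may matter for GSTF2. Its exons share 60.5% of their bases with exons of AT4G02510 on the opposite strand, a gene listed at 9.87 to 18.2 FPKM, above GSTF2 itself in every library. Whether the counting used strand is not given, so reads of these genes may not be told apart. In the other members with an overlapping gene in the table, the shared part was 1.06% to 9.85% of the exon bases.

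Upstream regions were searched for short motifs on both strands in the 250 bases before each annotated gene start. TGACG (or CGTCA on the other strand), the core bound by TGA-type bZIP factors and a known feature of GST promoters, was found in 14 of 39 members (35.9%) and in 19.0% of the 23852 windows of the table. A TGACGTCA palindrome counts on each strand. TGTCTC (or GAGACA), a core bound by auxin response factors, was found in 1 member, GSTU10, and in 10.9% of all windows, and TGTCGG (or CCGACA) in 0 members and 4.36% of windows. These are matches of letters and not tested sites. All 250 bases of the GSTU10 window lie within another gene of the table, AT1G74600. Some other windows, such as those of GSTU18, GSTU28 and GSTF2, also reach into neighbouring genes. Windows of GSTU9 and GSTU11, chosen as members that rose with IAA in both genotypes and hold TGACG cores (in capitals), are set beside those of GSTU14 and GSTU26, which fell most and hold none. GSTU4, GSTU16 and GSTU17 also rose in both genotypes and hold none.
GSTU9: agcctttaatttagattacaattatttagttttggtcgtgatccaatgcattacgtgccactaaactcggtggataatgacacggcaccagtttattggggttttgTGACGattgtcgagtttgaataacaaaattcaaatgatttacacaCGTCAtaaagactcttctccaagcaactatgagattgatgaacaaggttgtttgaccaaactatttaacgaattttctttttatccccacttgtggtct
GSTU11: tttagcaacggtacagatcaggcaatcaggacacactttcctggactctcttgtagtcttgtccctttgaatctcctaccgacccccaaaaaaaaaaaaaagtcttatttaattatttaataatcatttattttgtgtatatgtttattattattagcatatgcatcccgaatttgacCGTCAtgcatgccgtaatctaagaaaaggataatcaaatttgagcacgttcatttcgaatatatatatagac
GSTU14: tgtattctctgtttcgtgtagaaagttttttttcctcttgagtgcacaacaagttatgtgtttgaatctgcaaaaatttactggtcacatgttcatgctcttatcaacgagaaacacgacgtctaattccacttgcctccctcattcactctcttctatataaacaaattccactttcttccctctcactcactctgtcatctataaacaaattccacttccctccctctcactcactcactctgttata
GSTU26: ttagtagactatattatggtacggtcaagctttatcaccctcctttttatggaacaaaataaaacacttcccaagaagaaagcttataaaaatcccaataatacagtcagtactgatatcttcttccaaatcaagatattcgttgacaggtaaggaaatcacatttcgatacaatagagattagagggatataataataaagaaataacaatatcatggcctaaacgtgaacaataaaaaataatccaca
They are the TAIR10.1 intervals chr5:25089627-25089876, minus strand, chr1:26338819-26339068, minus strand, chr1:9427554-9427803, plus strand, and chr1:5875045-5875294, plus strand, each given 5′ to 3′ along its gene. Among the 6 members that rose with IAA in both genotypes, 3 held a TGACG core (GSTU9, GSTU11 and GSTF8), and among the 5 that fell in both, 1 did (GSTU27).

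A few members carried most of the family's transcripts. GSTF9 (AT2G30860), GSTF10 (AT2G30870), GSTU19 (AT1G78380) and GSTF8 (AT2G47730) together made up 65.7% to 74.8% of the summed FPKM of the family. The whole family took 0.547% to 0.918% of all FPKM in a library. Its sum was 3874 ± 237 FPKM in siz1-2 IAA, 5322 ± 495 FPKM in siz1-2 MS, 3866 ± 484 FPKM in Col-0 IAA and 4128 ± 243 FPKM in Col-0 MS (SD, n = 3 each). The 3 siz1-2 MS libraries, at 4809 to 5797 FPKM, were all above the other 9, which had 3314 to 4288 FPKM.

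**Figure D1:**
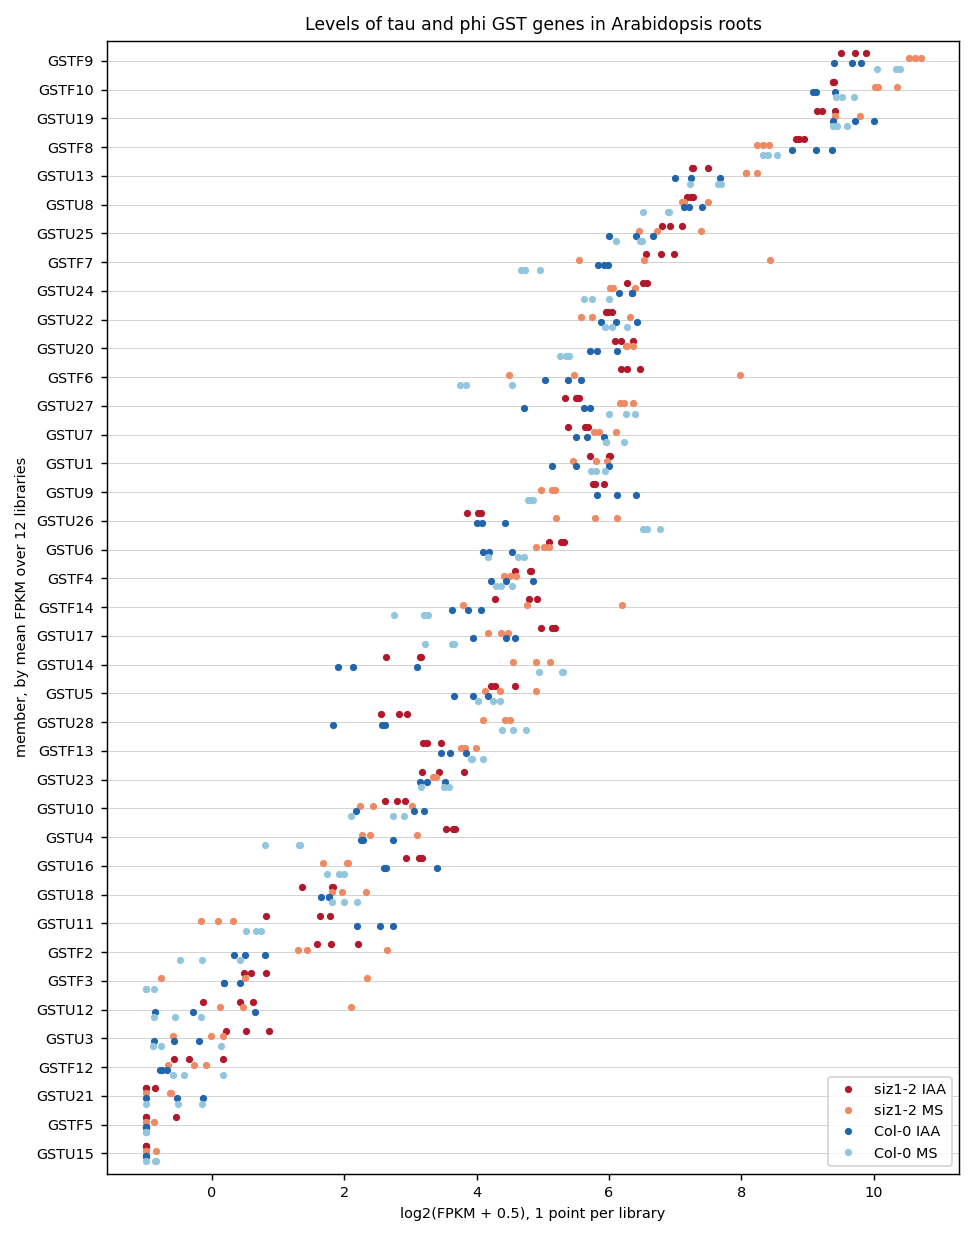
Each row is 1 of the 39 members, ordered by mean FPKM over the 12 libraries, and each point is 1 library on a log2(FPKM + 0.5) axis, coloured by group. GSTF9, GSTF10, GSTU19 and GSTF8 form the top of the family, and GSTF6, GSTF7 and GSTF14 each have 1 siz1-2 MS point far to the right of the rest.

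GSTU19, a tau member studied in salt and drought tolerance, was among the highest and passed the test in no comparison with all 12 libraries. Without Col-0 IAA replicate 3 it passed in siz1-2 against Col-0 with IAA. Its level was 592, 678 and 562 FPKM in siz1-2 IAA, against 685, 887 and 685 FPKM in siz1-2 MS. In Col-0 it was 1026, 837 and 664 FPKM with IAA, against 697, 777 and 670.3 FPKM on MS. The Col-0 groups overlapped, and Col-0 IAA replicate 1, the library with the highest green marker sum, was also the highest for GSTU19.

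At the other end, 5 members stayed below the filter. GSTU15 (AT1G59670) had at most 1 fragment in any library and GSTF5 (AT1G02940) at most 4, although GSTF5 lies between GSTF6 and GSTF4, which averaged 60.5 and 22.9 FPKM over the 12 libraries. GSTU21 (AT1G78360) had 0 to 8 fragments within a run whose next genes, GSTU20 and GSTU22, averaged 62.7 and 65.3 FPKM. GSTF12 (AT5G17220), the anthocyanin carrier also called TT19, had 2 to 15 fragments, and GSTU3 (AT2G29470) had 1 to 31. These counts were too low for a comparison at this depth.

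The IAA comparison asked which members changed within 3 h of auxin, in siz1-2 and in Col-0. The response went both ways and included tau and phi genes. In siz1-2, 6 of 34 members were higher and 8 lower with IAA at an adjusted p under 0.05 (limma, Benjamini-Hochberg over all genes), against 9.81% of all genes tested called higher and 8.06% called lower. In Col-0, 9 were higher and 5 lower, against 9.09% and 8.21% of all genes. GSTU4, GSTU9, GSTU11, GSTU16, GSTU17 and GSTF8 were higher in both genotypes, and GSTU14, GSTU26, GSTU27, GSTU28 and GSTF9 were lower in both. The median log2 change over the 34 members was -0.04 in siz1-2 and 0.16 in Col-0, beside 0.10 and -0.02 over all genes tested.

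The 3 largest falls were in GSTU14 (AT1G27140), GSTU26 (AT1G17190) and GSTU28 (AT1G53680), tau genes on chromosome 1 that are not neighbours of each other. GSTU14 had 5.67, 8.43 and 8.35 FPKM in siz1-2 IAA, against 29.3, 33.9 and 22.8 FPKM in siz1-2 MS. In Col-0 it had 8.06, 3.87 and 3.27 FPKM with IAA, against 30.2, 39.0 and 38.7 FPKM on MS. The IAA and MS libraries were far apart in both genotypes, and the log2 change with IAA was -1.87 (SE 0.27, adjusted p 0.00034) in siz1-2 and -2.80 (SE 0.27, adjusted p 9.3e-06) in Col-0. Col-0 IAA replicate 1 was the highest of its group, and without it the Col-0 change was -3.16.

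GSTU26 had 14.0, 15.8 and 16.2 FPKM in siz1-2 IAA, against 54.8, 68.8 and 36.1 FPKM in siz1-2 MS. Its Col-0 libraries had 16.5, 21.1 and 15.6 FPKM with IAA, against 94.3, 109 and 91.2 FPKM on MS. The IAA libraries of the genotypes overlapped (log2 difference -0.19, adjusted p 0.56), while every siz1-2 MS library was below every Col-0 MS library. The log2 change with IAA was -1.72 (SE 0.19, adjusted p 4.4e-05) in siz1-2 and -2.44 (SE 0.19, adjusted p 1.6e-06) in Col-0.

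GSTU28 had 5.39, 7.26 and 6.59 FPKM in siz1-2 IAA, against 21.0, 22.3 and 16.7 FPKM in siz1-2 MS. It had 5.65, 5.44 and 3.06 FPKM in Col-0 IAA, against 22.9, 26.4 and 20.5 FPKM in Col-0 MS. No IAA library reached any MS library, with log2 changes of -1.57 (SE 0.21, adjusted p 0.00018) in siz1-2 and -2.22 (SE 0.21, adjusted p 7.5e-06) in Col-0. The calls for GSTU14, GSTU26 and GSTU28 held under every alternative setting run, in both genotypes.

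**Figure D2:**
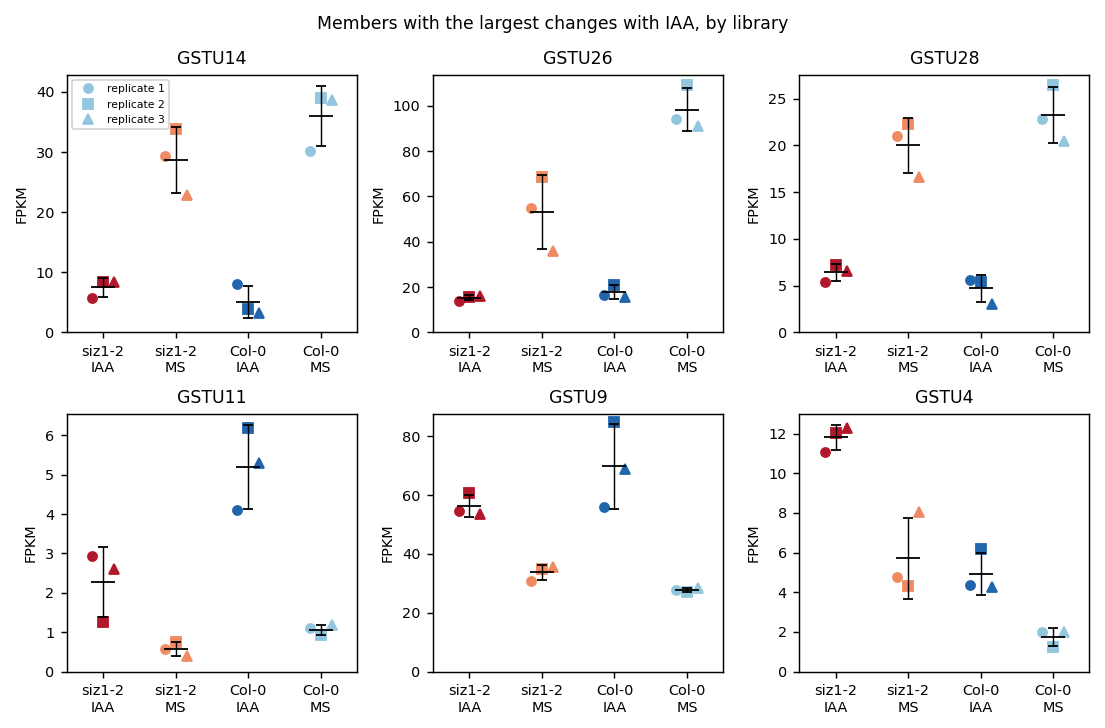
FPKM of 6 members in every library, by group (siz1-2 IAA, siz1-2 MS, Col-0 IAA, Col-0 MS), with the mean and SD (n = 3) in black and replicates by shape. GSTU14, GSTU26 and GSTU28 sit low in both IAA groups and GSTU11, GSTU9 and GSTU4 sit above their own MS group, with no overlap in either genotype.

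Smaller falls came from abundant phi genes. GSTF9, the most abundant member, had 841, 946 and 725 FPKM in siz1-2 IAA, against 1475, 1572 and 1672 FPKM in siz1-2 MS. In Col-0 it had 896, 814 and 676 FPKM with IAA, against 1062, 1294 and 1339.8 FPKM on MS. The groups did not overlap in either genotype, and the log2 changes were -0.92 (SE 0.14, adjusted p 0.00067) in siz1-2 and -0.63 (SE 0.14, adjusted p 0.0083) in Col-0. In Col-0 the call was lost when libraries were centred on their median and when only the Col-0 libraries were fitted, with or without the replicate block.

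GSTF10, also named ERD13 from its induction by dehydration and the direct neighbour of GSTF9, had 675, 670.0 and 665 FPKM in siz1-2 IAA, against 1069.8, 1039.7 and 1306 FPKM in siz1-2 MS. Its Col-0 libraries had 559, 679.7 and 543 FPKM with IAA, against 692, 733 and 829 FPKM on MS. The siz1-2 groups were well apart (log2 change -0.76, SE 0.13, adjusted p 0.0011). The Col-0 groups were close without overlapping, and the change of -0.34 (SE 0.13) did not pass the test (adjusted p 0.083).

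GSTU13 (AT1G27130), a tau gene tied to indole glucosinolate metabolism in immunity, is 82.0% identical to GSTU14 in coding sequence. Both passed the test as lower with IAA in siz1-2, but in Col-0 only GSTU14 did. The 2 genes were not tested against each other. GSTU13 had 153, 179.6 and 154 FPKM in siz1-2 IAA, against 269, 268 and 299.9 FPKM in siz1-2 MS. In Col-0 it had 205, 127 and 150.2 FPKM with IAA, against 149, 201 and 206 FPKM on MS. The siz1-2 groups were apart (log2 change -0.78, SE 0.17, adjusted p 0.0059), and the Col-0 groups overlapped (-0.21, SE 0.17, adjusted p 0.41). GSTU27 fell in both genotypes, with log2 changes of -0.79 in siz1-2 and -0.87 in Col-0, and GSTF13 passed the test in siz1-2 alone at -0.56. The Col-0 call of GSTU27 was lost without Col-0 MS replicate 2 and with only the Col-0 libraries in the fit. The siz1-2 calls of GSTU27 and GSTF13 were lost without siz1-2 IAA replicate 1 or 3 or without siz1-2 MS replicate 1, and that of GSTU27 also without siz1-2 MS replicate 2.

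The largest rise was in GSTU11 (AT1G69930), a tau gene of low level. It had 2.94, 1.26 and 2.61 FPKM in siz1-2 IAA, against 0.572, 0.753 and 0.396 FPKM in siz1-2 MS. In Col-0 it had 4.09, 6.20 and 5.30 FPKM with IAA, against 1.10, 0.930 and 1.18 FPKM on MS. The MS values came from 9 to 18 fragments in siz1-2 and 22 to 26 in Col-0. Every IAA library exceeded every MS library of its genotype. GSTU11 rose by 1.32 (SE 0.26, adjusted p 0.0029) in siz1-2 and by 1.85 (SE 0.26, adjusted p 0.00021) in Col-0 on the log2(FPKM + 0.5) scale, which understates changes at this level.

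GSTU9 (AT5G62480) had 54.6, 60.5 and 53.5 FPKM in siz1-2 IAA, against 30.8, 34.9 and 35.7 FPKM in siz1-2 MS. It had 55.8, 84.7 and 69.0 FPKM in Col-0 IAA, against 27.7, 27.0 and 28.4 FPKM in Col-0 MS. The Col-0 MS libraries were almost alike and the IAA libraries all lay well above them. The log2 change was 0.73 (SE 0.14, adjusted p 0.0023) in siz1-2 and 1.30 (SE 0.14, adjusted p 1.9e-05) in Col-0.

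GSTU16 (AT1G59700) had 8.29, 8.56 and 7.14 FPKM in siz1-2 IAA, against 3.63, 3.68 and 2.72 FPKM in siz1-2 MS. It had 5.55, 10.08 and 5.68 FPKM in Col-0 IAA, against 2.85, 3.47 and 3.29 FPKM in Col-0 MS. Every IAA library was above every MS library. The log2 change was 1.15 (SE 0.21, adjusted p 0.0021) in siz1-2 and 0.99 (SE 0.21, adjusted p 0.0056) in Col-0, with a difference of 0.16 (SE 0.30, adjusted p 0.82). The Col-0 call was lost with the replicate block in a fit of only the Col-0 libraries.

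GSTU4 (AT2G29460) combined an IAA response with a genotype difference. It had 11.1, 12.05 and 12.3 FPKM in siz1-2 IAA, against 4.75, 4.33 and 8.04 FPKM in siz1-2 MS. It had 4.39, 6.16 and 4.25 FPKM in Col-0 IAA, against 1.99, 1.25 and 2.01 FPKM in Col-0 MS. Siz1-2 roots on MS thus reached the range of Col-0 roots with IAA, and the log2 change with IAA was 1.03 (SE 0.23, adjusted p 0.0071) in siz1-2 and 1.27 (SE 0.23, adjusted p 0.0018) in Col-0.

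GSTU17 (AT1G10370), known as ERD9 and from work on light and abscisic acid signalling, had the same kind of pattern at a higher level. Its mean was 33.7 ± 2.56 FPKM in siz1-2 IAA, 19.8 ± 2.15 FPKM in siz1-2 MS, 19.9 ± 4.36 FPKM in Col-0 IAA and 10.9 ± 1.82 FPKM in Col-0 MS (SD, n = 3 each). It rose with IAA by 0.76 in siz1-2 and by 0.82 in Col-0 on the log2 scale. Its Col-0 call was lost with the replicate block in a fit of only the Col-0 libraries. Its neighbour GSTU18, 81.6% identical in coding sequence and sharing 71 exon bases with it, had 2.08 to 4.51 FPKM and passed no test.

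GSTF8, a phi gene used as an early marker of chemical and oxidative stress, had 466, 492 and 453 FPKM in siz1-2 IAA, against 300.2, 343 and 322 FPKM in siz1-2 MS. It had 658, 559 and 435 FPKM in Col-0 IAA, against 369.8, 319 and 338 FPKM in Col-0 MS. The groups did not overlap, and the log2 change was 0.55 (SE 0.14, adjusted p 0.014) in siz1-2 and 0.67 (SE 0.14, adjusted p 0.0042) in Col-0. The siz1-2 call was lost with libraries centred on their median or scaled by median-of-ratios factors, without siz1-2 IAA replicate 2 and without siz1-2 MS replicate 1. The Col-0 call was lost with the replicate block in a fit of only the Col-0 libraries.

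GSTU8 (AT3G09270) passed the test in Col-0. It had 151, 154 and 144 FPKM in siz1-2 IAA, against 140.2, 180.2 and 137 FPKM in siz1-2 MS, with overlap. It had 148, 169 and 140.0 FPKM in Col-0 IAA, against 118, 119 and 90.8 FPKM in Col-0 MS, with no overlap (log2 change 0.48, SE 0.14, adjusted p 0.027). Among the tau genes, GSTU20 and GSTU24 also passed in Col-0 alone, GSTU20 at 0.55 and GSTU24 at 0.49. The GSTU24 call was lost in 8 of 27 alternative settings without a fold limit, among them the fits without Col-0 IAA replicate 2 and without Col-0 MS replicate 1 or 3. That of GSTU8 was lost in 4 of 27 and that of GSTU20 in 1 of 27.

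**Figure D3:**
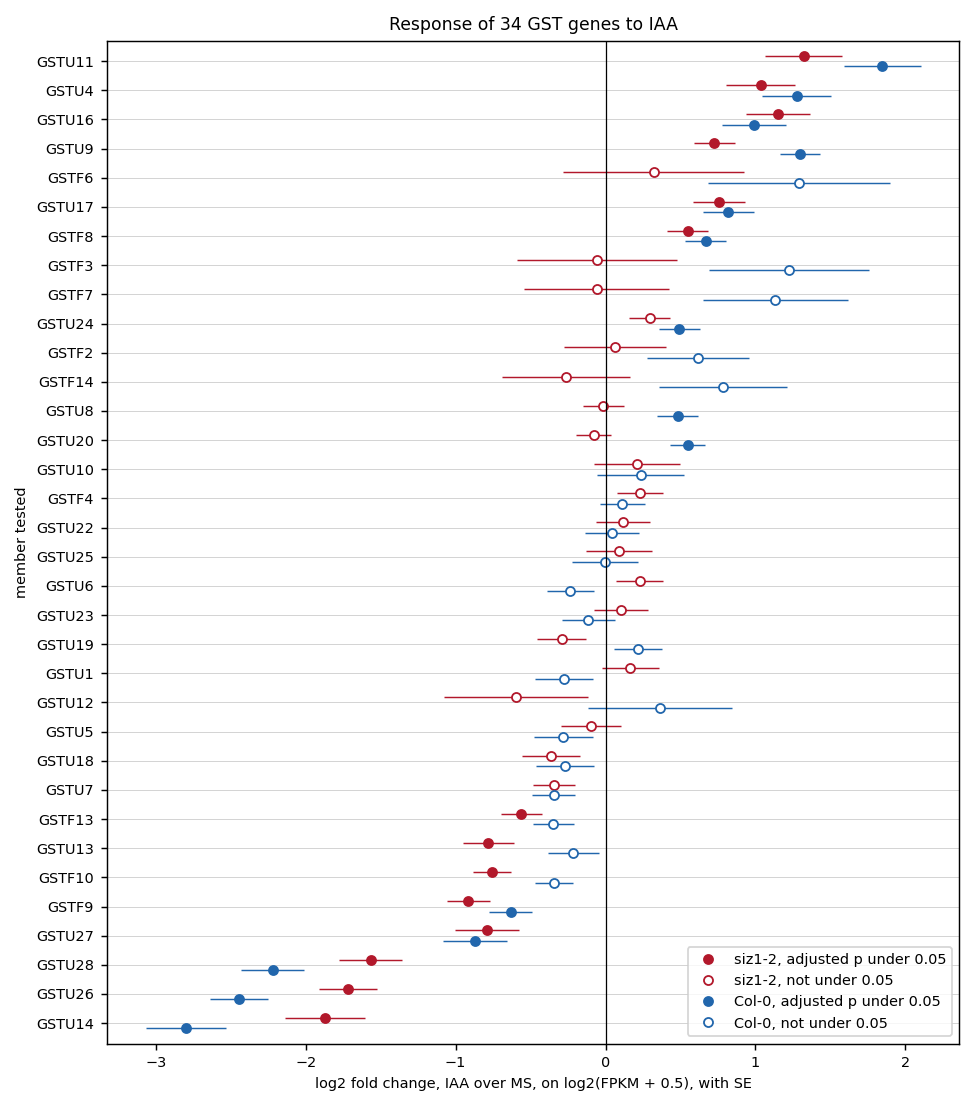
Log2 fold change of IAA over MS for the 34 members tested, in siz1-2 (red, upper point of each row) and Col-0 (blue, lower point), with the SE of the limma fit as bars and filled points where the adjusted p was under 0.05. Filled points of both colours mark the 6 members higher and the 5 lower in both genotypes, and the widest bars belong to GSTF6, GSTF3, GSTF7, GSTU12 and GSTF14.

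Whether the IAA response differed between genotypes was tested as an interaction, siz1-2 change minus Col-0 change. In the limma fit 0 of 34 members were called, against 0% of all genes called higher and 0.016% (3 genes) called lower, and voom on recovered fragments also called 0 members. At an unadjusted p under 0.05 there were 9 members of 34 and 2124 genes of 18743. For the 3 large falls the difference was 0.93 for GSTU14, 0.73 for GSTU26 and 0.65 for GSTU28, the siz1-2 fall being the smaller (adjusted p 0.43 to 0.44). For GSTU9 it was -0.57 (SE 0.19, adjusted p 0.41) and for GSTU20 -0.63 (SE 0.16, adjusted p 0.30). A call in 1 genotype and not in the other, as for GSTU13 or GSTU8, is therefore not shown to be a difference between them.

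The genotype comparison on MS asked how these genes differed between the siz1-2 line and Col-0 without added auxin. Members were mostly higher in the mutant where they passed the test, in both classes. In siz1-2 on MS, 7 of 34 members were higher and 1 lower than in Col-0, against 2.75% of all genes tested called higher and 2.55% called lower. The 7 were GSTF2, GSTF7, GSTF10 and GSTF14 of the phi class and GSTU4, GSTU17 and GSTU20 of the tau class, and the 1 was GSTU26. The median log2 change was 1.12 over the 10 phi members tested and 0.06 over the 24 tau members, beside -0.08 over all genes. Replicate 3 of siz1-2 MS was over 1 log2 unit above the other libraries of its group in 5 of the phi members, and without it the medians were 0.66 for phi and 0.16 for tau, beside -0.08. The classes were not tested against each other. Deviations of same-numbered MS libraries were weakly correlated between the genotypes (0.12, 0.20 and 0.34), and the labels do not say whether these libraries were paired. A fit of the MS libraries alone with the replicate number as a block called 13 members, 12 higher and 1 lower. The share of all genes called higher was 5.34% and lower 9.66% in that fit. It kept the 8 and added GSTF6, GSTU8, GSTU12, GSTU13 and GSTU24, while the block in the fit of all libraries gave 10.

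GSTU20 (AT1G78370), known as FIP1, a partner of the jasmonate-conjugating enzyme JAR1, was the clearest of them. Its mean was 77.9 ± 3.32 FPKM in siz1-2 MS and 40.0 ± 1.90 FPKM in Col-0 MS (SD, n = 3 each). The log2 difference was 0.95 (SE 0.12, adjusted p 0.00038), and the call held under all 27 alternative settings without a fold limit. It did not reach the fold limit, an absolute log2 change of at least 1. With IAA the means were 73.9 ± 6.98 FPKM in siz1-2 and 59.0 ± 8.70 FPKM in Col-0, and the difference of 0.33 did not pass the test (adjusted p 0.10).

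GSTU4 was higher in siz1-2 both on MS, by 1.44 (SE 0.23, adjusted p 0.0025), and with IAA, by 1.20 (SE 0.23, adjusted p 0.0057), with no overlap of the libraries given above and under every alternative setting run. GSTU17 was higher in siz1-2 on MS, by 0.84 (adjusted p 0.012), and with IAA, by 0.77 (adjusted p 0.013). The MS call for GSTU17 was lost without Col-0 MS replicate 1 or siz1-2 MS replicate 2, and the IAA call without siz1-2 IAA replicate 1 or 2. That IAA call was also lost with the replicate block in a fit of only the IAA libraries. GSTU26 was the member lower in siz1-2 on MS (log2 difference -0.92, SE 0.19, adjusted p 0.014), and this call was lost without Col-0 MS replicate 2. GSTF10 was 0.60 higher in siz1-2 on MS (SE 0.13, adjusted p 0.015), a call lost without Col-0 MS replicate 1 or 2 or siz1-2 MS replicate 3.

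GSTF2 (AT4G02520), a phi member known to bind camalexin and other indole or flavonoid ligands, was low in Col-0. It had 2.97, 2.51 and 4.11 FPKM in siz1-2 IAA, against 1.25, 0.916 and 0.759 FPKM in Col-0 IAA. On MS it had 2.20, 1.98 and 5.78 FPKM in siz1-2, against 0.218, 0.406 and 0.839 FPKM in Col-0, the last from 7 to 25 fragments. All siz1-2 libraries were above the Col-0 libraries of the same treatment. The log2 difference was 1.32 (SE 0.34, adjusted p 0.029) with IAA and 1.86 (SE 0.34, adjusted p 0.0061) on MS. The MS call held without siz1-2 MS replicate 3 (1.44), and the IAA call was lost without Col-0 IAA replicate 2 or 3 or siz1-2 IAA replicate 1 or 3. The overlap with AT4G02510 applies to these values.

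GSTF14 (AT1G49860) had 18.9, 29.7 and 27.1 FPKM in siz1-2 IAA, against 11.9, 16.2 and 14.2 FPKM in Col-0 IAA. On MS it had 26.8, 13.4 and 72.9 FPKM in siz1-2, against 9.11, 6.26 and 8.68 FPKM in Col-0. Within each treatment all siz1-2 values exceeded the Col-0 values, and those of siz1-2 MS spread 5.44-fold. The MS difference of 1.85 (SE 0.43) passed the test (adjusted p 0.023) and the IAA difference of 0.80 did not (adjusted p 0.26). The MS call was lost without any 1 of the Col-0 MS replicates or without siz1-2 MS replicate 1, and held at 1.21 without siz1-2 MS replicate 3.

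GSTF6 (AT1G02930), known as ERD11 and from camalexin synthesis, and its neighbour GSTF7 (AT1G02920) had the widest replicates among members averaging at least 5 FPKM. GSTF6 had 72.1, 76.7 and 87.7 FPKM in siz1-2 IAA, against 22.0, 44.1 and 253 FPKM in siz1-2 MS. In Col-0 it had 41.3, 47.3 and 32.3 FPKM with IAA, against 13.9, 12.9 and 22.7 FPKM on MS. The siz1-2 MS libraries lay on both sides of the IAA libraries and spread 11.5-fold, while the largest spread of the other groups was 1.76-fold.

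GSTF7 had 94.0, 109 and 126 FPKM in siz1-2 IAA, against 46.2, 91.8 and 345 FPKM in siz1-2 MS. In Col-0 it had 56.7, 62.9 and 60.5 FPKM with IAA, against 25.0, 26.0 and 30.7 FPKM on MS. The spread in siz1-2 MS was 7.47-fold, with the third replicate on top as for GSTF6. Replicate 3 of siz1-2 MS was over 1 log2 unit above the other libraries of its group for 6 members, GSTF6, GSTF7, GSTF3, GSTF14, GSTU12 and GSTF2, and 5 of these 6 are phi genes. In the other 11 libraries 0 to 3 members were that far from their group. Its sum of green markers was 357 FPKM and it had 304 genes that far from its group, against 133 and 172 genes in the other siz1-2 MS libraries. What set this library apart was not tested.

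Because all groups share 1 estimate of the spread, that library bears on every test of these genes. With all 12 libraries, GSTF7 passed in siz1-2 on MS at 2.05 (SE 0.48, adjusted p 0.026) and GSTF6 did not at 1.94 (SE 0.61, adjusted p 0.091). Without siz1-2 MS replicate 3 the difference was 1.25 for GSTF7 (adjusted p 0.010, against 0.0022 to 0.092 over its 27 alternatives) and 0.94 for GSTF6 (adjusted p 0.11, against 0.014 to 0.25). With IAA, all siz1-2 libraries of both genes were above all Col-0 libraries, and the differences of 0.97 for GSTF6 and 0.86 for GSTF7 did not pass the test (adjusted p 0.34 and 0.29). On MS the GSTF7 call was lost with no filter, with only the MS libraries in the fit, without any 1 Col-0 MS replicate and without siz1-2 MS replicate 2.

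In Col-0 the IAA and MS libraries of GSTF6 and GSTF7 did not overlap. The log2 change with IAA was 1.29 (SE 0.61, adjusted p 0.17) for GSTF6 and 1.13 (SE 0.48, adjusted p 0.13) for GSTF7 with all libraries, and without siz1-2 MS replicate 3 the same changes had adjusted p 0.0042 and 0.0023. Their adjusted p ran over the alternatives from 0.0042 to 0.35 for GSTF6 and from 0.00086 to 0.26 for GSTF7. In siz1-2 the change with IAA was 0.32 for GSTF6 and -0.06 for GSTF7 with all libraries, neither passing the test. Without siz1-2 MS replicate 3 it was 1.32 (adjusted p 0.0086, range 0.0086 to 0.97) for GSTF6 and 0.74 (adjusted p 0.0497, range 0.0497 to 0.98) for GSTF7, so that 1 library turned the direction of the GSTF7 estimate. Without siz1-2 MS replicate 1 the GSTF6 estimate turned as well, to -0.43 (adjusted p 0.63).

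**Figure D4:**
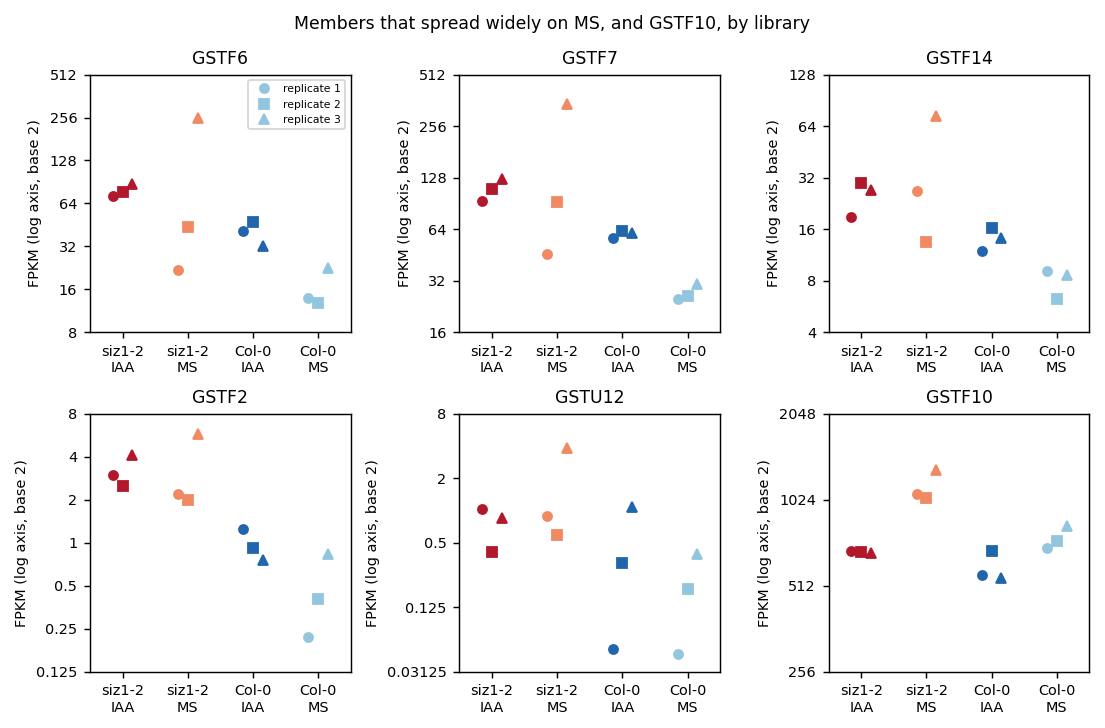
FPKM in every library on log axes of base 2 for GSTF6, GSTF7, GSTF14, GSTF2, GSTU12 and GSTF10, by group (siz1-2 IAA, siz1-2 MS, Col-0 IAA, Col-0 MS) with replicates by shape. The triangle of siz1-2 MS replicate 3 is the highest point in every panel, at 253 FPKM for GSTF6 and 345 FPKM for GSTF7.

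The same genotype comparison was made after IAA. In siz1-2 IAA, 4 of 34 members were higher and 1 lower than in Col-0 IAA, against 3.91% of all genes tested called higher and 5.21% called lower. GSTU4, GSTU17 and GSTF2 were higher both here and on MS. GSTU6 (AT2G29440) joined them with 37.1 ± 2.96 FPKM in siz1-2 IAA and 19.0 ± 3.28 FPKM in Col-0 IAA (SD, n = 3 each), a log2 difference of 0.96 (adjusted p 0.0020). On MS it had 31.6 ± 2.07 FPKM in siz1-2 and 22.5 ± 4.34 FPKM in Col-0, which did not overlap and did not pass the test (0.50, adjusted p 0.091). GSTU11 was lower in siz1-2 with IAA (log2 difference -1.08, SE 0.26, adjusted p 0.018), a call lost without Col-0 IAA replicate 2 or siz1-2 IAA replicate 2 and with only the IAA libraries in the fit. The genotype differences on MS and with IAA have no libraries in common, but each shares its libraries with an IAA comparison.

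**Figure D5:**
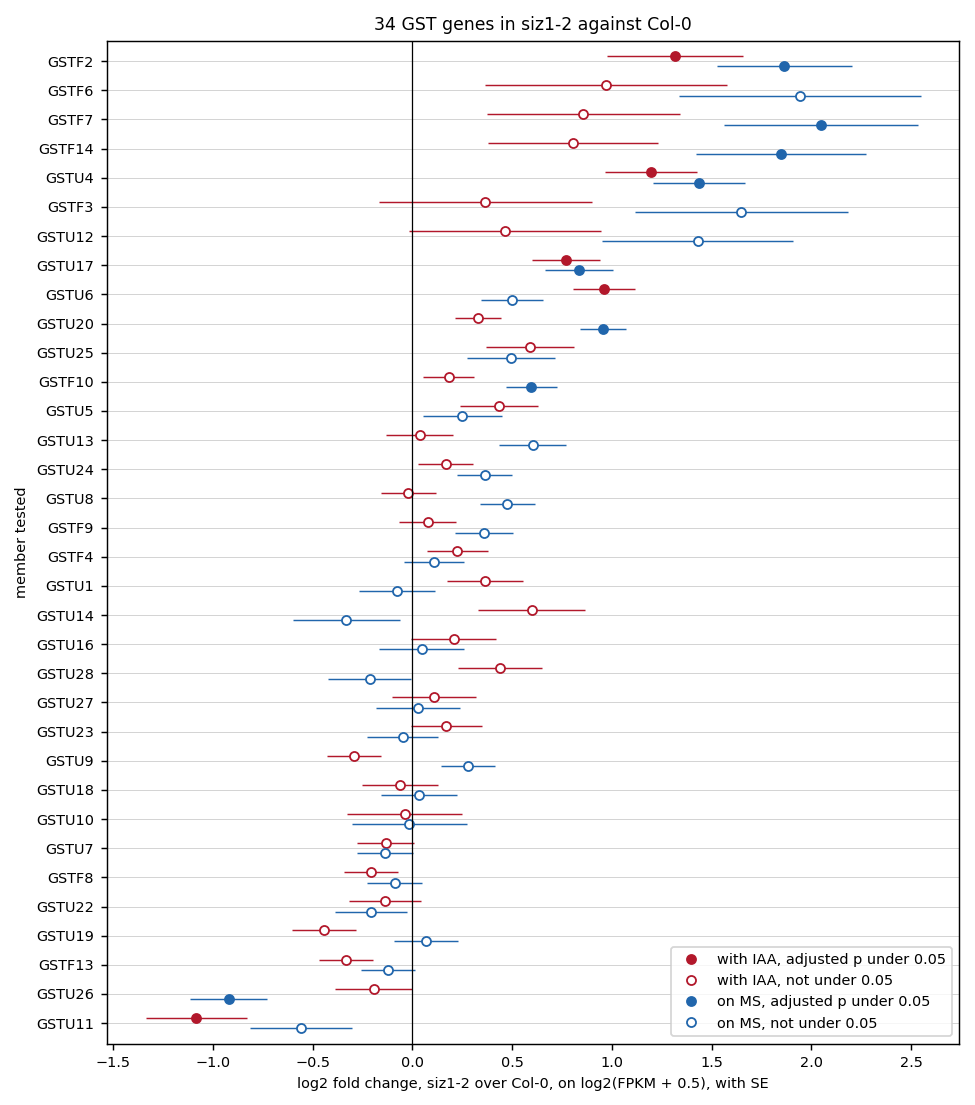
Log2 fold change of siz1-2 over Col-0 for the 34 members tested, with IAA (red, upper point of each row) and on MS (blue, lower point), with the SE of the limma fit as bars and filled points where the adjusted p was under 0.05. Filled points of both colours are GSTF2, GSTU4 and GSTU17, and the filled points left of 0 are GSTU26 on MS and GSTU11 with IAA.

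Neighbouring members did not always go the same way. Calls in this paragraph are those of the fit of all 12 libraries without the replicate block. In the run of GSTU24, GSTU25 and GSTU26, GSTU24 was higher with IAA in Col-0, GSTU25 (82.3 ± 11.8 FPKM in Col-0 MS, SD, n = 3) passed no test, and GSTU26 fell strongly. GSTU24 and GSTU25, known for conjugating the explosive trinitrotoluene, share 79.4% of their coding bases, and GSTU25 and GSTU26 share 70.2%. GSTU11 rose with IAA, while its neighbour GSTU12 (0.046 to 3.81 FPKM) passed no test. GSTF9 and GSTF10, in contrast, went the same way. Both were lower with IAA in siz1-2, and their estimates had the same sign in every other contrast. With IAA in Col-0 only GSTF9 passed the test, and in siz1-2 on MS only GSTF10 did (GSTF9 adjusted p 0.20). These neighbours were not tested against each other. In the run from GSTU23 to GSTU19, GSTU20 passed 2 tests and the other 3 members tested passed none.

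The groups did not overlap for more members than passed the test. With IAA this held for 17 of 34 members in siz1-2, beside 47.5% of all genes tested, and for 22 in Col-0, beside 29.6% of all genes. Between siz1-2 and Col-0 it held for 17 members on MS, beside 32.7% of all genes, and for 12 with IAA, beside 28.7%. In all, 21 of the 34 members passed the test in at least 1 of the 5 contrasts, as did 30.5% of all genes tested. The 13 that passed in none were GSTU1, GSTU5, GSTU7, GSTU10, GSTU12, GSTU18, GSTU19, GSTU22, GSTU23, GSTU25, GSTF3, GSTF4 and GSTF6. Some of these passed under alternatives. GSTU12 and GSTF6 passed on MS in the fit of the MS libraries with the replicate block. With the block in the fit of all libraries, GSTU7 passed with IAA in both genotypes and GSTU25 in siz1-2 with IAA. GSTF3 and GSTU19 passed under other alternatives. Among the 13, GSTF3 (AT2G02930) had 1 fragment over the 3 Col-0 MS libraries and 2, 21 and 100 fragments in siz1-2 MS.

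Other genes around the GSTs were read from fixed lists. Of 11 genes for transport of conjugates and xenobiotic response, 5 were higher and 1 lower with IAA in siz1-2, and 3 were higher and 1 lower in Col-0. Of all genes tested, 9.81% were called higher and 8.06% lower with IAA in siz1-2, and 9.09% and 8.21% in Col-0. ABCC3, a vacuolar pump for glutathione conjugates, had 23.1 ± 1.59 FPKM in siz1-2 IAA and 5.53 ± 0.136 FPKM in siz1-2 MS, with 15.4 ± 2.90 FPKM in Col-0 IAA and 7.18 ± 1.57 FPKM in Col-0 MS (SD, n = 3 each). UGT74E2, a glucosyltransferase of indole-3-butyric acid, had 56.3 ± 11.3 FPKM in siz1-2 IAA and 16.8 ± 5.51 FPKM in siz1-2 MS, with 23.9 ± 4.22 FPKM in Col-0 IAA and 7.10 ± 1.94 FPKM in Col-0 MS. Both rose with IAA in both genotypes, and UGT74E2 and the cytochrome P450 CYP81D8 were also higher in siz1-2 than in Col-0 in both treatments. Against Col-0, 3 of the 11 were higher in siz1-2 on MS and 4 with IAA, beside 2.75% and 3.91% of all genes. The median log2 change of this list with IAA was 0.17 in siz1-2 and 0.19 in Col-0, beside 0.10 and -0.02 over all genes.

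Of 8 genes of glutathione synthesis and turnover, GSH1, which makes the first step of glutathione synthesis, was the 1 lower with IAA in both genotypes and none was higher. This is 12.5% of the list, beside 8.06% of all genes tested called lower in siz1-2 and 8.21% in Col-0, so the count is near that share. The median log2 change of this list with IAA was -0.07 in siz1-2 and -0.22 in Col-0, beside 0.10 and -0.02 over all genes. GSH1 had 77.9 ± 5.23 FPKM in siz1-2 IAA and 102 ± 1.21 FPKM in siz1-2 MS, with 84.4 ± 6.14 FPKM in Col-0 IAA and 116 ± 12.9 FPKM in Col-0 MS (SD, n = 3 each). GGCT2;1, which degrades glutathione, and the glutathione reductase gene GR1 were the 2 of 8 higher in siz1-2 in both treatments. Of all genes tested, 2.75% were higher in siz1-2 on MS and 3.91% with IAA. GGCT2;1 had 5.74 ± 1.29 FPKM in siz1-2 IAA and 1.18 ± 0.174 FPKM in Col-0 IAA, and 8.09 ± 1.54 FPKM in siz1-2 MS and 1.18 ± 0.055 FPKM in Col-0 MS.

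Of 11 genes of other GST classes, GSTL2 of the lambda class was higher with IAA in both genotypes and the dehydroascorbate reductase gene DHAR1 was lower in siz1-2. None differed between genotypes. Of all genes tested, 9.81% were higher and 8.06% lower with IAA in siz1-2, and 9.09% and 8.21% in Col-0, so these counts are near that share. The list medians for the IAA change were 0.16 in siz1-2 and -0.10 in Col-0, beside 0.10 and -0.02 over all genes. Of 8 genes of camalexin and glucosinolate synthesis, GGP1 and CYP79B3 were lower with IAA in both genotypes and CYP83A1 in siz1-2. That is 37.5% of the list in siz1-2 and 25% in Col-0, beside the shares of all genes just given. None differed between siz1-2 and Col-0, and the medians for the IAA change were -0.38 in siz1-2 and -0.16 in Col-0. Of 10 listed genes of anthocyanin synthesis, the pathway that GSTF12 serves, only TT4, F3H and TT7 passed the filter. These 3 therefore do not describe the pathway as a whole. Among them, F3H and TT7 were lower with IAA in both genotypes and higher in siz1-2 in both treatments. Of all genes tested, 2.75% were higher in siz1-2 on MS and 3.91% with IAA.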

How the data were processed

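Roots of siz1-2 and Col-0 seedlings were profiled with 12 RNA-seq libraries, 3 in each of the 4 groups. The deposited values are FPKM per gene, made by the authors on a sequencing provider's platform. The sources used here give no aligner or build, and nothing on strand or on fragments fitting several genes. FPKM multiplied by the exon length of the RefSeq TAIR10.1 annotation gave whole fragments (tolerance 0.02) for 100% of values above 0 in each library, so depth, coordinates and sequences were taken on that build. Sequences are from RefSeq, and all 23853 gene identifiers matched.

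The 18743 genes reaching 1 FPKM in at least 3 libraries were tested as log2(FPKM + 0.5) with limma 3.58.1 in R 4.3.3 (group means of all 12 libraries, eBayes with trend), for 5 contrasts. P-values were adjusted by Benjamini-Hochberg over all genes tested, and calls were made at an adjusted p under 0.05. A fold change is on the log2(FPKM + 0.5) scale, which understates changes of low genes. Of these steps, only the limma fit was tried on simulated log2 values. Coding sequences were aligned with Biopython 1.88. The members and the gene lists were chosen with earlier results of these data known.

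Values per library are given for members called with an absolute log2 change of at least 1, the 6 highest members, members averaging at least 5 FPKM with over 3-fold spread within a group, and GSTF6 and GSTF7. From the lists, the 2 called genes with the largest change per contrast were eligible. Libraries sharing a replicate number were checked for pairing by the correlation of their deviations from the group means. It was 0.12, 0.20 and 0.34 between the genotypes on MS, where the numbers may pair the libraries. In each other comparison it was at or under 0.1 for at least 1 number. The fit of all 12 libraries behind the calls did not use the replicate number.

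Alternatives were other pseudocounts, filters and scalings, limma without trend or with robust estimation, fits of only the groups compared, the replicate block, a fold limit and leaving out libraries. Chosen after seeing the data were voom on recovered fragments, the block in a fit of only the groups compared, and leaving out siz1-2 MS replicate 3 with both libraries of high green marker sums. No pair of replicates agreed within sampling noise.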

Additional observations from a re-analysis of the deposited data

How the results depend on the processing

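The members called numbered 14 with IAA in siz1-2, 14 with IAA in Col-0, 0 for the interaction, 5 in siz1-2 with IAA and 8 in siz1-2 on MS. With an absolute log2 change of at least 1 also required, they were 6, 6, 0, 3 and 4 in the same order. The share of all genes tested that met both limits was 5.85%, 6.46%, 0.016%, 3.22% and 2.25%. The lost calls given for single members leave this fold limit aside. A filter of 5 FPKM left 29 members and gave 3 in siz1-2 with IAA, losing GSTF2 and GSTU11, which were no longer tested. Leaving out 1 library at a time gave 11 to 16 with IAA in siz1-2, 12 to 17 with IAA in Col-0, 0 for the interaction in each fit, 3 to 8 in siz1-2 with IAA and 4 to 11 in siz1-2 on MS. The count over all genes moved too, from 2032 to 5478, from 2062 to 3996, from 1 to 7, from 872 to 2076 and from 534 to 2174 in the same order. In siz1-2 with IAA the count was 3 without Col-0 IAA replicate 2 or siz1-2 IAA replicate 1 or 2, and 8 without Col-0 IAA replicate 1. In siz1-2 on MS it was 4 without Col-0 MS replicate 1 or 2. With the replicate block in only the groups compared it was 13 on MS, with 2811 genes called in all against 994. The block changed no other count by over 1.5 times, but the members called differed. With IAA in Col-0 that fit called 10 members, with 1398 genes in all against 3241. It lost GSTU8, GSTU16, GSTU17, GSTU20, GSTU24, GSTF8 and GSTF9 and added GSTF3, GSTF6 and GSTF7. For siz1-2 against Col-0 with IAA it lost GSTU11 and GSTU17 and added GSTF6, GSTF7 and GSTF14, with 589 genes called against 1709. The IAA change of GSTF7 in siz1-2, -0.06 with all libraries, ran from -0.71 without siz1-2 MS replicate 1 to 0.74 without siz1-2 MS replicate 3, where it passed the test. Of 2251 values under alternatives for the 17 members with per-library values, 2134 kept direction and side of the threshold and 38, of 11 members, changed sign without passing the test in either fit. A further 43 newly passed, 35 no longer passed, and 1 changed sign and passed. Where no cause is named, the cause was not tested. Centring libraries on their median moved the median of all genes by -0.11 with IAA in siz1-2, -0.13 for the interaction and 0.12 in siz1-2 on MS. Members under 30 fragments, such as GSTU3, GSTU11, GSTU12, GSTF2 and GSTF3 in some libraries, were limited by depth.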
